A study of Rattus norvegicus with 18 samples.

Results

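Rat kidneys in which the left ureter had been tied for 7 days were compared with kidneys taken after 3 days, across the whole messenger RNA. Each duration had 5 libraries, out of the 18 in the series, and the comparison was fitted on these 10 alone. Of 30957 genes in the deposited table, 21126 had a count in these libraries and 13809 passed a filter on low counts and were tested. Both groups carried unilateral ureteral obstruction, made under ketamine through a midline incision, and differed in the days from the ligature to the removal of the kidney. The tissue was renal parenchyma, so every library mixes tubule, vessel, interstitial and immune cells. The labels give no strain, sex or age and do not tie a library to an animal, so a p-value reflects how much libraries vary, and part of that variation may be technical. The design names a sham group, but the titles of all 18 libraries name a ureter ligation. Neither duration is therefore set against an unobstructed kidney.

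A blocked ureter dilates the tubules of the kidney above it, and their epithelium is injured within days. Fibroblasts and pericytes between the tubules multiply and lay down collagen, which crosslinking enzymes of the lysyl oxidase family then harden, while macrophages and T cells gather around them. Proximal tubule cells normally live on burning fatty acids, a program under the transcription factor PPAR-alpha, and the loss of it is a known mark of the injured kidney. Transforming growth factor beta is the best known driver of the matrix response.

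Library totals ran from 5899690 to 8964703 counts at 7 days and from 6899498 to 12049915 at 3 days, with 3-day replicate 1 the deepest. Transcripts of the mitochondrial genome took 7.25 to 9.21% of counts at 7 days and 7.11 to 13.4% at 3 days, the highest share being in 3-day replicate 3. Of 12 markers of kidney parenchyma 11 were in the table, and their summed level was 1006 to 1667 FPKM (fragments per kilobase of gene, scaled to library size) at 7 days and 900.4 to 1988 FPKM at 3 days. Sums of 6 markers of urothelium, the lining of the renal pelvis, were 0.248 to 1.61 FPKM at 7 days and 0.610 to 70.6 FPKM at 3 days. The high end was 3-day replicate 1, in which Upk1a, Upk2 and Upk3a, uroplakins of that lining, stood at 19.6, 19.0 and 22.8 FPKM. Summed T cell markers were 9.59 to 52.7 FPKM at 7 days and 4.24 to 11.8 FPKM at 3 days, and macrophage markers 46.9 to 152.5 FPKM at 7 days and 30.2 to 55.4 FPKM at 3 days. The first principal component held 36.9% of the variance, with all 7-day libraries between 2.29 and 49.6 and all 3-day libraries between −36.3 and −13.4.

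After 7 days 657 genes were higher and 324 lower than after 3 days (edgeR quasi-likelihood test, Benjamini-Hochberg adjusted p under 0.05). Those are 4.76% and 2.35% of the genes tested, 7.1% together. Counts of list members given below are to be read beside these shares, and several of the small counts lie near them. The median log2 fold change (7 over 3 days) was 0.94 among the genes that rose, −0.61 among those that fell and −0.0062 over all genes tested. A change of at least 1 on the log2 scale was seen in 290 of the genes that rose and 45 of those that fell. All 7-day libraries lay above all 3-day libraries in FPKM for 7.21% of genes, and below them for 1.35%. A limma fit on log2(FPKM + 1) called 7.29% of genes, 863 higher and 143 lower, so the excess of rises was larger on that scale. In DESeq2 the excess was smaller, with 1211 higher and 892 lower. With a replicate block in the edgeR fit there was no excess, with 596 higher and 608 lower. The number of calls depended on single libraries: it was 390, 247, 478 and 607 without 3-day replicates 1, 2, 4 and 5, and 459 and 254 without 7-day replicates 4 and 5. With the other 8 libraries of the series added to the fit, 154 genes (1.12%) were called, all of them among the 981. Each gene called in all 10 refits that leave out 1 library is described below as stable, which held for 184 of the genes that rose and 33 of those that fell.

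**Figure D1:**
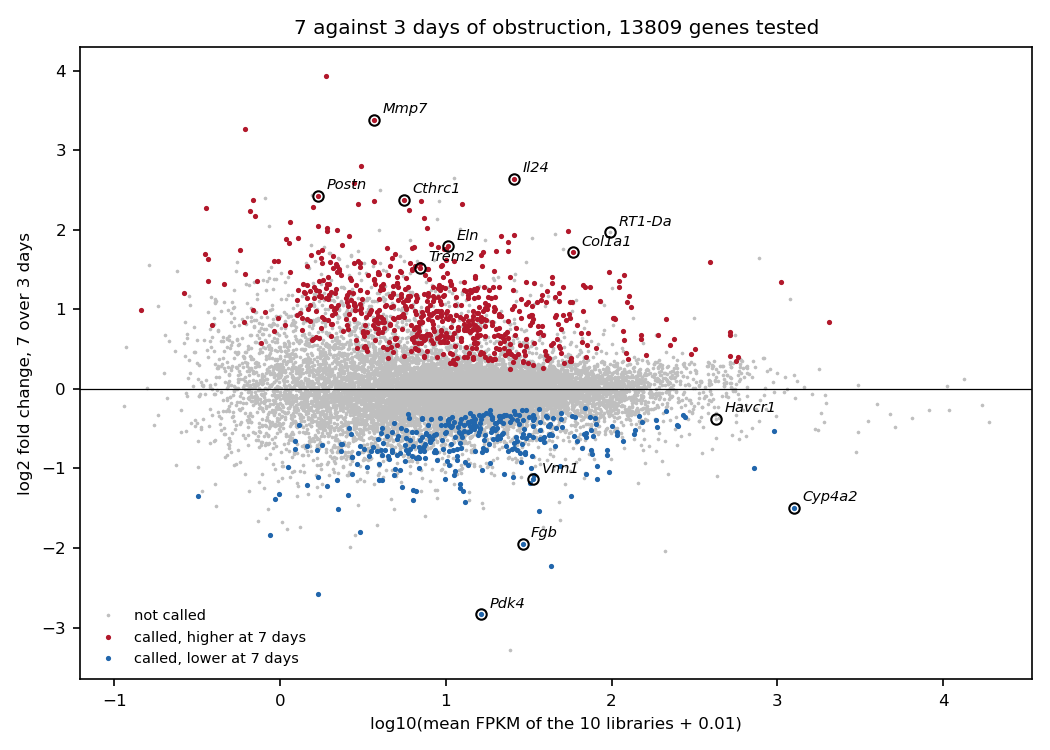
Log2 fold change of 7 over 3 days (vertical axis) against log10 of the mean FPKM of the 10 libraries plus 0.01 (horizontal axis), 1 point per gene tested. The 657 genes called higher are red, the 324 called lower are blue, the rest grey, and circled genes are named in the text; rises reach larger fold changes and more genes than falls.

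Mmp7 had the largest rise among well expressed genes whose libraries did not overlap. It encodes matrilysin, a metalloproteinase of injured epithelium, and lies on chromosome 8, 5893249 to 5901049, plus strand in the deposited table, which names no build. Replicates 1 to 5, the order used throughout, had 10.1, 6.55, 6.72, 3.76 and 6.86 FPKM at 7 days, against 0.373, 0.912, 0.998, 0.507 and 0.347 FPKM at 3 days. The lowest 7-day library stood well above every 3-day library (log2 fold change 3.38 ± 0.36 (SE), edgeR adjusted p = 0.00277). Il24, a cytokine of the interleukin-10 family, had 71.4, 33.7, 32.3, 39.2 and 47.8 FPKM at 7 days, against 6.8, 10.3, 6.1, 7.78 and 3.33 FPKM at 3 days. Its groups were likewise far apart (log2 fold change 2.64 ± 0.29 (SE), edgeR adjusted p = 0.00278).

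Genes of activated fibroblasts were next in size. Cthrc1, a secreted protein of matrix-forming fibroblasts, had 7.85, 7.42, 6.05, 8.35 and 17.6 FPKM at 7 days, against 2.25, 1.07, 1.6, 1.51 and 2.01 FPKM at 3 days. Without exception the 7-day libraries were higher, replicate 5 by the widest margin (log2 fold change 2.38 ± 0.32 (SE), edgeR adjusted p = 0.00456). Twist2, a transcription factor of mesenchymal cells, had 12.7, 9.35, 5.28, 9.98 and 12.5 FPKM at 7 days, against 2.03, 1.84, 0.703, 3.45 and 1.96 FPKM at 3 days (log2 fold change 2.24 ± 0.33 (SE), edgeR adjusted p = 0.00594). Ccdc80, a secreted protein that binds matrix, averaged 87.6 ± 28.1 FPKM at 7 days and 21 ± 6.39 FPKM at 3 days (SD, n = 5 each), and rose by 1.98 ± 0.28 log2 units. All of these were stable. Of the 17 tested genes in a list for fibroblasts and pericytes 7 rose and none fell, with a median of 0.91. With 1 library left out 3 (without 3-day replicate 2 or 7-day replicate 5) to 9 (without 7-day replicate 1) of them rose. Pdgfrb, the receptor by which pericytes answer platelet-derived growth factor, had 21.3, 33.1, 22.9, 34.5 and 31 FPKM at 7 days, against 15.9, 14.4, 14.4, 14.7 and 12.3 FPKM at 3 days, a change smaller than that of Twist2 but as cleanly separated (log2 fold change 0.92 ± 0.14 (SE), edgeR adjusted p = 0.00614). Cdh11, a cadherin of mesenchymal cells, rose by 1.10 ± 0.20 log2 units and was stable as well. Prrx1 and S100a4, further fibroblast genes, rose by 0.99 ± 0.25 log2 units and 1.04 ± 0.24 log2 units. Prrx1 lost its call without 7-day replicates 2, 4 or 5 or 3-day replicates 1, 2, 4 or 5 (highest adjusted p = 0.0959). S100a4 lost its call without 7-day replicate 5 or 3-day replicates 1, 2, 3 or 4 (highest adjusted p = 0.0835).

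**Figure D2:**
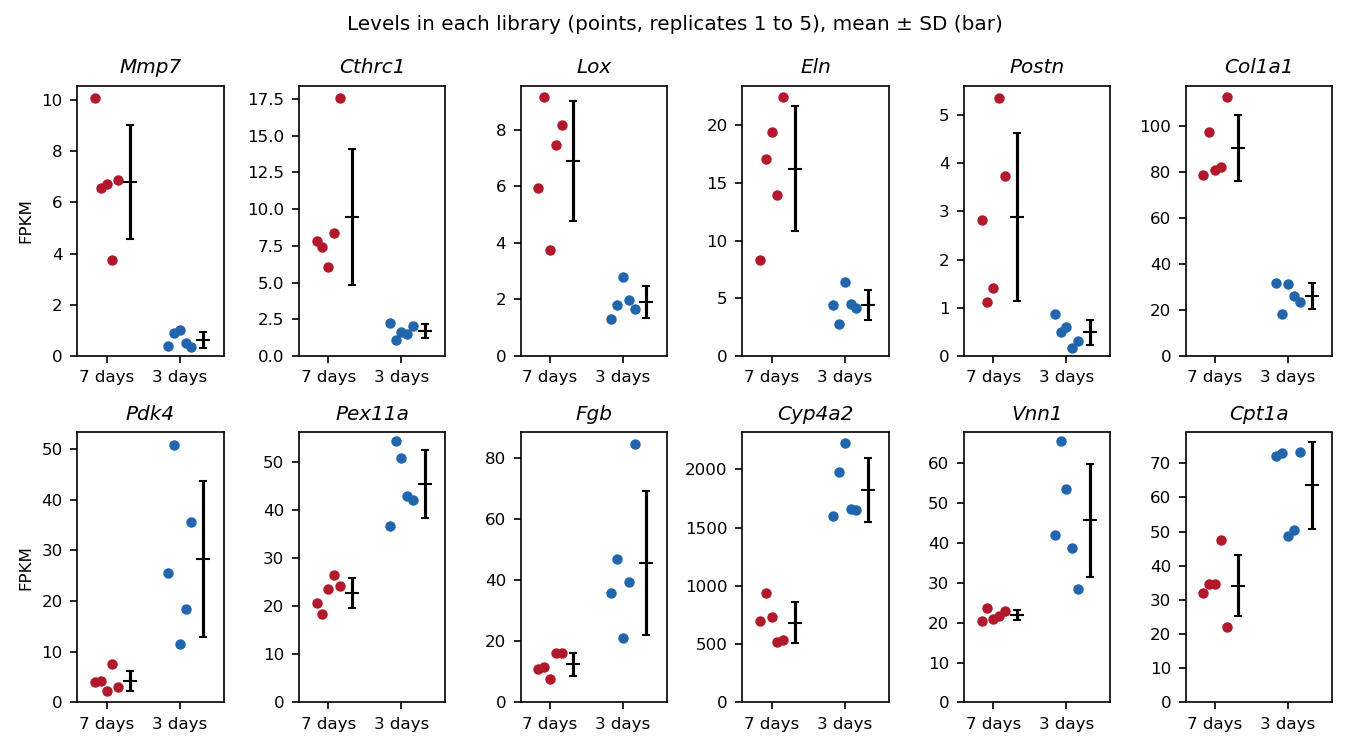
FPKM (linear axes from 0) in each library for 6 genes that rose and 6 that fell, with the 5 libraries of 7 days left and the 5 of 3 days right, replicates 1 to 5 from left to right within a group, and the mean ± SD as a bar. No 7-day library overlaps a 3-day library in any of the 12 panels, a condition by which most of these genes were chosen.

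Fibrillar collagens, the rope-like proteins of scar, rose in 5 of 9 tested members and fell in none, with a median of 1.22. Col1a1, the alpha-1 chain of type I collagen on chromosome 10, 82745801 to 82762789, plus strand, had 78.7, 97.7, 81.1, 82.4 and 113 FPKM at 7 days, against 31.7, 18.2, 31.4, 25.9 and 23.5 FPKM at 3 days. Here the lowest 7-day value was more than 2-fold the highest 3-day value (log2 fold change 1.72 ± 0.17 (SE), edgeR adjusted p = 0.00262). Col3a1, the chain of type III collagen, had 155, 185, 121, 185 and 229 FPKM at 7 days, against 70.5, 46.2, 59.5, 73.6 and 59 FPKM at 3 days (log2 fold change 1.43 ± 0.17 (SE), edgeR adjusted p = 0.00385). Col5a1 and Col5a2, chains of the type V collagen that starts fibrils, rose by 1.27 ± 0.16 log2 units and 1.22 ± 0.20 log2 units. Col11a1 was 2.03 to 5.62 FPKM at 7 days and 0.477 to 1.52 FPKM at 3 days. Col11a1 lost its call without 7-day replicates 2, 4 or 5 or 3-day replicates 1, 2, 4 or 5 (highest adjusted p = 0.0879). Over the refits with 1 library left out, the number of fibrillar members that rose ran from 4 to 6 (without 3-day replicate 3).

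Other collagens of the interstitium behaved similarly in number, with 5 of 11 higher, none lower and a median of 1.00. Type VI collagen, a beaded network around cells, gave close values for its chains: Col6a1 had 49.4, 65.9, 41.8, 84.9 and 81.8 FPKM at 7 days, against 26.4, 19.2, 24.8, 28.6 and 17.4 FPKM at 3 days and Col6a2 had 54.1, 68.5, 46.5, 76.4 and 74.3 FPKM at 7 days, against 26, 21.8, 26.2, 28 and 18.5 FPKM at 3 days. Their log2 fold changes were 1.40 ± 0.21 and 1.33 ± 0.16, both stable. Col14a1, which sits on the surface of fibrils, changed most in the list, from a low level: 2.35, 3.03, 1.64, 2.88 and 5.54 FPKM at 7 days, against 0.693, 0.565, 0.875, 0.759 and 0.693 FPKM at 3 days (log2 fold change 2.02 ± 0.30 (SE), edgeR adjusted p = 0.00627). Col16a1 rose by 1.17 ± 0.22 log2 units. In the basement membrane list, by contrast, the median was 0.08 over 19 genes, with 4 higher and 1 lower; with 1 library left out 2 to 5 (without 7-day replicate 3) were higher. Within it Col4a1 and Col4a2, the paired chains of type IV collagen, moved together: Col4a1 averaged 281 ± 40.2 FPKM at 7 days and 146 ± 11.3 FPKM at 3 days, and Col4a2 averaged 137 ± 25.1 FPKM at 7 days and 71.3 ± 9.02 FPKM at 3 days (SD, n = 5 each). Both rises were stable, 0.88 ± 0.11 and 0.88 ± 0.12 on the log2 scale. Lama4, a laminin chain of vessel walls, rose by 0.80 ± 0.20 log2 units. Lama4 lost its call without 7-day replicates 2, 4 or 5 or 3-day replicates 1, 2, 4 or 5 (highest adjusted p = 0.0934). Lamb3, a laminin chain of epithelial basement membranes that urothelium also makes, was the member that fell. It had 5.15, 3.02, 3.53, 3.82 and 4.34 FPKM at 7 days, against 15.9, 5.39, 3.99, 8.0 and 12.8 FPKM at 3 days. The high values at 3 days were in replicates 1 and 5, the libraries with the most uroplakin transcript, and the part of urothelium in this difference was not tested. Lamb3 lost its call without 7-day replicates 2, 3, 4 or 5 or 3-day replicates 1, 2, 4 or 5 (highest adjusted p = 0.0931).

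Enzymes that process and crosslink collagen had 10 of 20 members higher, none lower and a median of 0.52. Lox, lysyl oxidase, had 5.94, 9.15, 3.75, 7.46 and 8.15 FPKM at 7 days, against 1.3, 1.79, 2.79, 1.99 and 1.65 FPKM at 3 days (log2 fold change 1.77 ± 0.26 (SE), edgeR adjusted p = 0.00613). Its relative Loxl1 had 106, 118, 65.2, 106 and 137 FPKM at 7 days, against 37.9, 42.7, 34.9, 61.7 and 32.7 FPKM at 3 days (log2 fold change 1.27 ± 0.20 (SE), edgeR adjusted p = 0.00806), and Loxl2 rose by 1.14 ± 0.24 log2 units. Loxl2 lost its call without 7-day replicate 5 or 3-day replicate 2 (highest adjusted p = 0.0624). Plod2, which hydroxylates lysines for a tight kind of crosslink, averaged 21.3 ± 4.94 FPKM at 7 days and 8.49 ± 1.66 FPKM at 3 days (SD, n = 5 each; 1.25 ± 0.17 on the log2 scale). Adamts2, which trims the amino end of procollagen, rose by 1.58 ± 0.24 log2 units. Lox, Loxl1, Plod2 and Adamts2 were stable, and with 1 library left out the count of members that rose ran from 7 (without 3-day replicate 2 or 7-day replicate 5) to 12 (without 7-day replicate 3). Elastic fibre genes were all positive in sign, 6 of 14 rose, and the median was 0.64; with 1 library left out 3 (without 3-day replicate 2 or 7-day replicate 5) to 6 (without 3-day replicate 5 or 7-day replicate 1) rose. Eln, elastin itself, had 8.3, 17.1, 19.4, 13.9 and 22.4 FPKM at 7 days, against 4.39, 2.77, 6.39, 4.54 and 4.14 FPKM at 3 days. The 7-day spread was wide, with replicate 1 lowest, yet no library overlapped (log2 fold change 1.80 ± 0.28 (SE), edgeR adjusted p = 0.00772). Fbn1, the fibrillin on which elastin is laid, rose by 1.41 ± 0.14 log2 units and Ltbp2, a fibrillin-binding protein, by 1.44 ± 0.22 log2 units, both stable. Mfap2, a microfibril component, rose by 1.00 ± 0.26 log2 units. Mfap2 lost its call without 7-day replicates 2, 3, 4 or 5 or 3-day replicates 1, 2, 3, 4 or 5 (highest adjusted p = 0.106).

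Matricellular proteins, which tune the contact of cells with matrix, had a median of 0.83 and 8 of 19 members higher, or 4 (without 3-day replicate 2 or 7-day replicate 5) to 9 (without 7-day replicate 1 or 7-day replicate 3) with 1 library left out. Sparc, a collagen-binding protein among the most abundant transcripts of the group, had 502, 607, 545, 649 and 696 FPKM at 7 days, against 195, 188, 202, 209.9 and 152 FPKM at 3 days. It had the smallest p of the genes named here (log2 fold change 1.59 ± 0.12 (SE), edgeR adjusted p = 0.000713). Thbs2, thrombospondin 2, changed most in the list, with 3.6, 6.61, 2.05, 3.4 and 8.36 FPKM at 7 days, against 1.27, 0.542, 0.943, 0.551 and 0.394 FPKM at 3 days (log2 fold change 2.59 ± 0.43 (SE), edgeR adjusted p = 0.00924). Dcn, the proteoglycan decorin, averaged 143 ± 38.9 FPKM at 7 days and 49.3 ± 10.9 FPKM at 3 days (SD, n = 5 each), and rose by 1.47 ± 0.20 log2 units. Postn, periostin, had 2.81, 1.13, 1.4, 5.35 and 3.73 FPKM at 7 days, against 0.863, 0.491, 0.604, 0.17 and 0.311 FPKM at 3 days and a log2 fold change of 2.43 ± 0.49. Postn lost its call without 7-day replicate 5 or 3-day replicate 2 (highest adjusted p = 0.059). Fn1, fibronectin, fell just short of the threshold: it had 76.2, 126, 69.1, 69.1 and 117 FPKM at 7 days, against 70.6, 52.8, 35.8, 49.6 and 33.5 FPKM at 3 days, with an overlap at 3-day replicate 1 (log2 fold change 0.86 ± 0.23 (SE), edgeR adjusted p = 0.0504). In the refits without 3-day replicate 1 or 7-day replicate 3 it was called. Among matrix proteases and their inhibitors 5 of 22 rose, with a median of 0.50. Beside Mmp7 these included Mmp2, a gelatinase of fibroblasts, which averaged 35.9 ± 10.4 FPKM at 7 days and 12.9 ± 3.63 FPKM at 3 days (SD, n = 5 each; 1.41 ± 0.24 on the log2 scale), and Mmp23 and Adamts12, with 0.93 ± 0.16 log2 units and 1.17 ± 0.19 log2 units. Ctsk, the collagen-cutting cathepsin K, rose by 1.15 ± 0.18 log2 units in a lysosome list whose median was −0.03.

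Contractile genes of smooth muscle and myofibroblasts were less marked. Their median was 0.39, and 3 of 14 rose, a count that ran from 0 (without 3-day replicate 2 or 7-day replicate 5) to 3 (without 3-day replicate 3 or 7-day replicate 1) with 1 library left out. Acta2, the actin used as the usual marker of myofibroblasts, was not called: it had 111, 143, 108, 83.4 and 129.9 FPKM at 7 days, against 49.5, 85.2, 89.7, 73.3 and 29.8 FPKM at 3 days, where 3-day replicates 2 and 3 overlapped the 7-day range (log2 fold change 0.74 ± 0.28 (SE), edgeR adjusted p = 0.116). Tpm2, Des and Cnn2, for tropomyosin, desmin and calponin 2, rose by 0.79 ± 0.20 log2 units, 0.50 ± 0.12 log2 units and 0.75 ± 0.16 log2 units. Tpm2 lost its call without 7-day replicates 2, 3, 4 or 5 or 3-day replicates 1, 2, 4 or 5 (highest adjusted p = 0.104). Des lost its call without 7-day replicates 2, 4 or 5 or 3-day replicates 1, 2, 4 or 5 (highest adjusted p = 0.0926). Cnn2 lost its call without 7-day replicate 5 or 3-day replicate 2 (highest adjusted p = 0.0707).

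In the list for transforming growth factor beta and bone morphogenetic signalling 7 of 27 members rose and none fell, 17 were positive and 10 negative in sign, and the median was 0.15. With 1 library left out 4 (without 3-day replicate 1, 3-day replicate 4 or 7-day replicate 5) to 8 (without 7-day replicate 1) rose. The ligand Tgfb2 had 18.7, 14.1, 20.4, 6.74 and 15.9 FPKM at 7 days, against 4.07, 3.48, 6.17, 5.1 and 2.53 FPKM at 3 days (log2 fold change 1.76 ± 0.31 (SE), edgeR adjusted p = 0.0126). Tgfb1, the form best known in fibrosis, had 42.2, 64.4, 38.5, 68.5 and 63.2 FPKM at 7 days, against 28.7, 21.3, 23.1, 25.3 and 25.1 FPKM at 3 days (log2 fold change 1.09 ± 0.16 (SE), edgeR adjusted p = 0.0058). Bmp2 and Fstl1, a ligand of the bone morphogenetic branch and a secreted modulator of it, rose by 0.97 ± 0.16 log2 units and 0.98 ± 0.18 log2 units. These 4 genes were stable. Of 14 ligands of the platelet-derived, epidermal and fibroblast growth factor families only Hbegf rose, by 0.86 ± 0.20 log2 units, beside 4.76% of all genes tested. Hbegf lost its call without 7-day replicates 1 or 5 or 3-day replicates 1, 2, 4 or 5 (highest adjusted p = 0.0886). The median of those ligands was −0.16. In the Wnt list most of the called members encode secreted proteins of the Sfrp and Dickkopf families. Of its 17 tested genes 5 rose, and the median was 0.46. That count was 3 (without 3-day replicate 1, 3-day replicate 2 or 7-day replicate 5) to 5 (without 3-day replicate 3, 7-day replicate 1 or 7-day replicate 3) with 1 library left out. Sfrp1, which binds Wnt ligands, had 49.9, 78.5, 45.3, 69.2 and 77.8 FPKM at 7 days, against 27.9, 29.4, 27.5, 33.3 and 19.2 FPKM at 3 days (log2 fold change 1.15 ± 0.18 (SE), edgeR adjusted p = 0.00766). Dkk3 and Dkk2 of the Dickkopf family rose by 1.05 ± 0.18 log2 units and 0.94 ± 0.17 log2 units, both stable. The ligand Wnt5b rose by 0.90 ± 0.23 log2 units. Wnt5b lost its call without 7-day replicates 2, 4 or 5 or 3-day replicates 1, 2 or 4 (highest adjusted p = 0.102).

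Macrophage genes were higher at 7 days, unevenly between libraries. Of 29 tested 9 rose, none fell, 28 were positive in sign and the median was 1.11. DESeq2 called 18 of the 29 higher. Trem2, a lipid-sensing receptor of tissue macrophages, had 10.3, 11.3, 4.63, 14.8 and 11.3 FPKM at 7 days, against 2.65, 2.25, 3.83, 4.02 and 4.45 FPKM at 3 days, with replicate 3 the low library of the 7-day group (log2 fold change 1.52 ± 0.29 (SE), edgeR adjusted p = 0.0173). Aif1, a calcium-binding protein of macrophages, had 14.3, 38.4, 10.7, 37.1 and 24.6 FPKM at 7 days, against 7.7, 7.41, 6.6, 9.2 and 9.66 FPKM at 3 days, high in replicates 2 and 4 and lower in 1 and 3 (log2 fold change 1.55 ± 0.32 (SE), edgeR adjusted p = 0.0218). Cd68, a lysosomal protein of macrophages, had 27.3, 54.7, 20.9, 69.9 and 48.2 FPKM at 7 days, against 16.7, 9.69, 10.9, 16.9 and 28 FPKM at 3 days, so that 7-day replicates 1 and 3 overlapped 3-day replicate 5 (log2 fold change 1.35 ± 0.35 (SE), edgeR adjusted p = 0.0443). C1qa, a chain of the first complement component made by macrophages, showed the same order of libraries, from 68.1 to 269 FPKM at 7 days and from 41.1 to 85.7 FPKM at 3 days. Trem2 lost its call without 7-day replicate 5 or 3-day replicate 2 (highest adjusted p = 0.0514). Aif1 lost its call without 7-day replicate 5 or 3-day replicates 1 or 2 (highest adjusted p = 0.0621). Cd68 lost its call without 7-day replicates 2, 4 or 5 or 3-day replicates 1, 2, 3 or 4 (highest adjusted p = 0.103). C1qa lost its call without 7-day replicates 2, 4 or 5 or 3-day replicates 1, 2, 3, 4 or 5 (highest adjusted p = 0.109). Over those refits the number of macrophage genes that rose ran from 0 (without 3-day replicate 2 or 7-day replicate 5) to 17 (without 7-day replicate 3). In bulk tissue a larger number of cells of a type and more RNA per cell cannot be told apart. Pf4, a chemokine of platelets and some macrophages, was stable, with 22.5, 36.6, 15.8, 43.2 and 37.8 FPKM at 7 days, against 6.79, 5.47, 9.59, 12.8 and 9.71 FPKM at 3 days (log2 fold change 1.74 ± 0.31 (SE), edgeR adjusted p = 0.0126).

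The list score of a library, its mean of log2(FPKM + 1) over members relative to each gene's mean of the 10 libraries, shows the same unevenness. For macrophages it was −0.050, 0.93, −0.46, 1.18 and 0.56 in 7-day replicates 1 to 5 and −0.46, −0.68, −0.62, −0.23 and −0.17 in 3-day replicates 1 to 5. Fibrillar collagens instead scored 0.41, 0.59, 0.28, 0.39 and 0.60 at 7 days and −0.24, −0.75, −0.29, −0.42 and −0.58 at 3 days, with no overlap and little spread at 7 days. Replicate 3 of 7 days thus lay within the 3-day range for macrophages and above it for collagens.

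**Figure D3:**
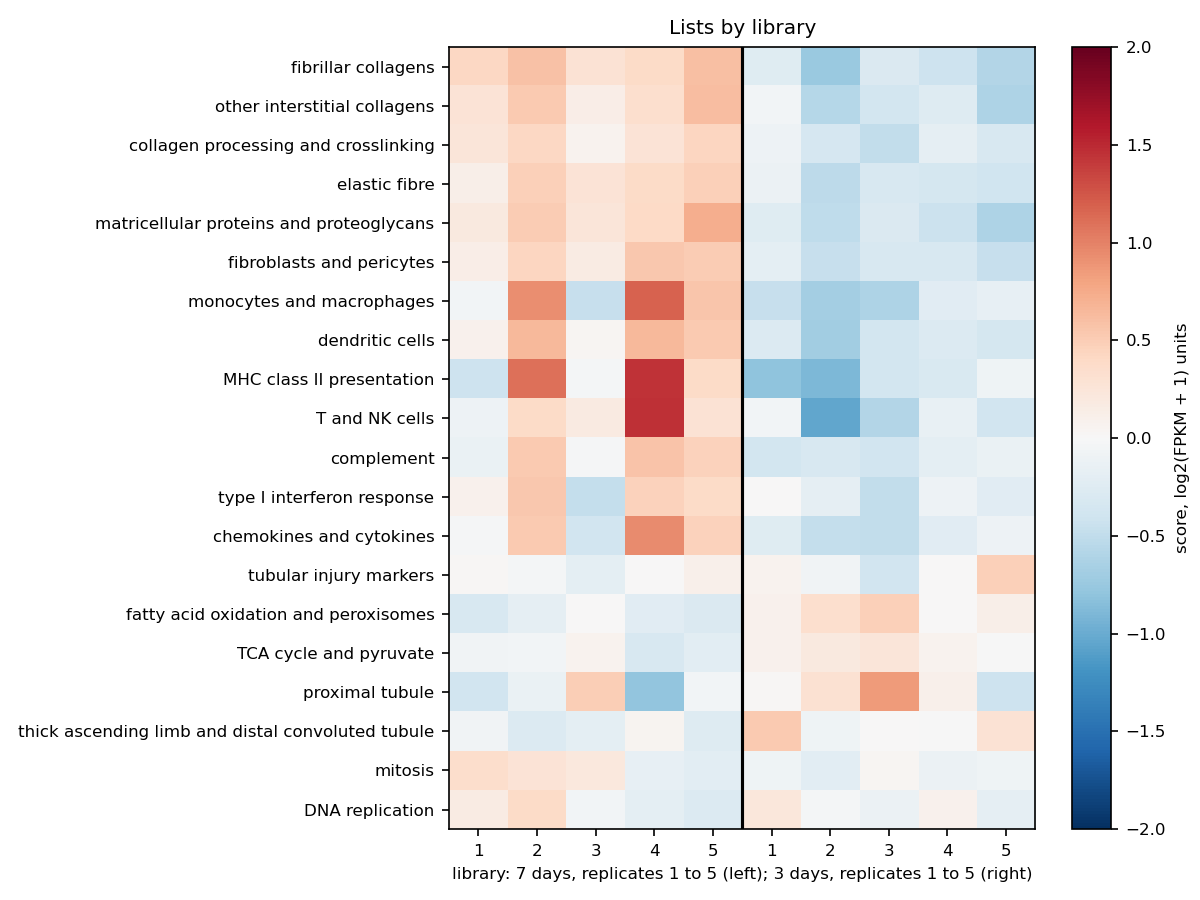
List scores (mean log2(FPKM + 1) of the tested members relative to each gene's mean of the 10 libraries; red above, blue below) for 20 lists, with the 5 libraries of 7 days left of the line and the 5 of 3 days right, replicates 1 to 5. The 5 matrix lists plotted are red in every 7-day library, whereas macrophage, class II and T cell lists are reddest in 7-day replicates 2 and 4.

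Dendritic cell genes had 6 of 9 higher and a median of 0.84, and 2 (without 3-day replicate 2 or 7-day replicate 5) to 6 (without 7-day replicate 3) rose with 1 library left out. Clec4a, a lectin receptor of dendritic and myeloid cells, had 2.19, 4.96, 2.23, 4.91 and 3.58 FPKM at 7 days, against 1.07, 0.425, 0.814, 0.661 and 1.13 FPKM at 3 days (log2 fold change 2.00 ± 0.32 (SE), edgeR adjusted p = 0.00878). Fscn1, the actin bundler of mature dendritic cells and of other motile cells, had 5.34, 11.7, 6.26, 6.36 and 9.74 FPKM at 7 days, against 3.59, 2.16, 3.09, 2.29 and 2.09 FPKM at 3 days (log2 fold change 1.48 ± 0.26 (SE), edgeR adjusted p = 0.0116). Both were stable. Irf8, the transcription factor of a dendritic cell lineage, rose by 1.25 ± 0.28 log2 units. Irf8 lost its call without 7-day replicates 2, 4 or 5 or 3-day replicates 1, 2 or 5 (highest adjusted p = 0.0707).

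The list for class II genes of the major histocompatibility complex, which show peptides to helper T cells, also holds regulators of them. Its median was 1.55 over 13 tested genes, all positive in sign. RT1-Bb alone was called by edgeR with all 10 libraries, and by limma on log2(FPKM + 1) the count was also 1. DESeq2 called 8 of the 13, and edgeR called 7 without 7-day replicate 1 and 5 without 7-day replicate 3. It had 3.94, 19, 7.68, 23.4 and 10.5 FPKM at 7 days, against 2.18, 2.39, 4.29, 3.94 and 4.52 FPKM at 3 days (log2 fold change 1.81 ± 0.43 (SE), edgeR adjusted p = 0.0351). RT1-Bb lost its call without 7-day replicates 2, 4 or 5 or 3-day replicates 1, 2, 4 or 5 (highest adjusted p = 0.0893). RT1-Da, the most abundant of the chains printed below, had 34.5, 256, 68.8, 339 and 94.6 FPKM at 7 days, against 24.8, 18.4, 41.7, 41.1 and 64.3 FPKM at 3 days; 7-day replicates 2 and 4 stood apart, and replicate 1 lay within the 3-day range (log2 fold change 1.97 ± 0.58 (SE), edgeR adjusted p = 0.0608). Cd74, the chaperone of class II chains, reached 2469.9 FPKM in 7-day replicate 4 and was at most 535 FPKM at 3 days, with overlap (log2 fold change 1.65 ± 0.50 (SE), edgeR adjusted p = 0.0663); it was called without 7-day replicate 1. Without 7-day replicate 4 the list median was 0.95. Reads of related RT1 genes may be split between them by the counting.

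Promoters are shown for 5 of the 8 genes of the class II list that hold the motif described here. They come from RefSeq (build GRCr8), each from position −140 to −31 relative to the gene's start, 5′ to 3′ on the gene's strand. Capitals mark CTGATTGG, the Y box at which NF-Y binds class II promoters. The windows are chr20:4604149-4604258 (minus strand), chr20:4576917-4577026 (plus), chr20:4515275-4515384 (plus), chr20:4560193-4560302 (minus) and chr20:4758454-4758563 (minus).
RT1-Bb: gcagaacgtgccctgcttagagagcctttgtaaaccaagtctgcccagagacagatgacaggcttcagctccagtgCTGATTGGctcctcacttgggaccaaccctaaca
RT1-Ba: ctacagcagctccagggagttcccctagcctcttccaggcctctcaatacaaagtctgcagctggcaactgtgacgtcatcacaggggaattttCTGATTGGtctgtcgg
RT1-Da: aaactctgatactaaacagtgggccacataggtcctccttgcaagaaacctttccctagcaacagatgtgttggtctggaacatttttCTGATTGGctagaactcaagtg
RT1-Db1: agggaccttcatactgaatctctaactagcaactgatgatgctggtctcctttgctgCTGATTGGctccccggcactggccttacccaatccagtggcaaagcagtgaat
RT1-DOa: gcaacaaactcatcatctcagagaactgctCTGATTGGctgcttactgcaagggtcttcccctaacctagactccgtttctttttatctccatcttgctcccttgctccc
The box starts at positions −64, −46, −52, −83 and −110 in RT1-Bb, RT1-Ba, RT1-Da, RT1-Db1 and RT1-DOa. Searched on either strand in 250 bases before to 50 after the start, these letters were in 3.5% of all 33469 promoters. They were in 8 of the 14 genes of the list with an entry, among them the regulator Rfx5. The shorter GATTGG, which the longer motif contains, was in 14.8% of promoters and in 11 of those 14 genes. Rfx5 and the regulator Rfxank were among these. RT1-Ba had 16.6, 64.5, 29.5, 117 and 37.7 FPKM at 7 days, against 6.4, 5.34, 12.4, 17.9 and 25.6 FPKM at 3 days, RT1-Db1 had 6.52, 43.9, 12.6, 57.5 and 17.6 FPKM at 7 days, against 4.25, 4.31, 7.01, 7.43 and 12.5 FPKM at 3 days, and RT1-DOa had 1.09, 3.92, 1.48, 7.95 and 2.2 FPKM at 7 days, against 0.447, 0.321, 0.967, 1.29 and 2.36 FPKM at 3 days. These 3 missed the threshold (log2 fold changes 1.89 ± 0.55, 1.87 ± 0.55 and 1.55 ± 0.62 with edgeR adjusted p of 0.0594, 0.0604 and 0.132), RT1-Ba and RT1-Db1 narrowly. RT1-Ba and RT1-Db1 were each called without 7-day replicate 1 or 3, as was RT1-Da. The 5 genes were chosen for display after their values had been seen.

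T and NK cell genes were positive in sign in all 29 members tested, with a median of 1.18, yet 5 passed the test. With 1 library left out 0 (without 3-day replicate 1 or 7-day replicate 5) to 8 (without 7-day replicate 1) passed, and DESeq2 called 14. Cd7, a surface protein of T and NK cells, had 5.74, 12.9, 6.93, 9.43 and 12 FPKM at 7 days, against 3.19, 1.43, 3.28, 2.92 and 4.69 FPKM at 3 days (log2 fold change 1.51 ± 0.31 (SE), edgeR adjusted p = 0.0208). Cd7 lost its call without 7-day replicate 5 or 3-day replicate 1 (highest adjusted p = 0.0598). Cd3e, a chain of the T cell receptor complex, had 2.85, 4.01, 4.9, 13 and 2.63 FPKM at 7 days, against 3.28, 0.965, 1.35, 3.44 and 2.17 FPKM at 3 days, with replicate 4 far above every other library (log2 fold change 1.21 ± 0.47 (SE), edgeR adjusted p = 0.126). Cxcr3, a chemokine receptor of activated T cells, had 5.67, 7.55, 6.09, 22 and 7.76 FPKM at 7 days, against 4.48, 1.68, 2.06, 4.5 and 3.05 FPKM at 3 days, and Prf1, the pore-forming perforin of killer cells, rose by 1.47 ± 0.38 log2 units. Cxcr3 lost its call without 7-day replicates 2, 4 or 5 or 3-day replicates 1, 2, 3, 4 or 5 (highest adjusted p = 0.104). Prf1 lost its call without 7-day replicates 2, 4 or 5 or 3-day replicates 1, 2, 3, 4 or 5 (highest adjusted p = 0.101). Without 7-day replicate 4 the list median was 0.71. None of the 10 tested B and plasma cell genes, of the 5 neutrophil genes or of the 15 class I and immunoproteasome genes passed in edgeR; their medians were 0.38, 0.45 and 0.42. At an unadjusted p under 0.05 there were 2, 2 and 5 of them, all higher at 7 days; DESeq2 called 1, 1 and 2 and limma on log2(FPKM + 1) called 0. The median of the neutrophil genes was −0.52 without 7-day replicate 4 and 1.23 without 3-day replicate 5.

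Among chemokines and cytokines 3 of 29 rose, with a median of 0.75. With 1 library left out 1 (without 3-day replicate 2 or 7-day replicate 5) to 11 (without 7-day replicate 3) rose, and DESeq2 called 11. Ccl2, the main attractant of monocytes, had 46.8, 29.8, 9.75, 41.9 and 43 FPKM at 7 days, against 6.66, 7.81, 8.14, 11.1 and 9.09 FPKM at 3 days; replicate 3 lay within the 3-day range and the other 7-day libraries well above it (log2 fold change 1.92 ± 0.35 (SE), edgeR adjusted p = 0.0135). That call was stable. Cxcl1, an attractant of neutrophils, had the same low library at 7 days: 25.4, 13.4, 4.34, 36.3 and 26.2 FPKM at 7 days, against 2.87, 3.76, 2.55, 3.35 and 7.36 FPKM at 3 days (log2 fold change 2.33 ± 0.50 (SE), edgeR adjusted p = 0.0251). Cxcl1 lost its call without 7-day replicates 4 or 5 or 3-day replicates 1, 2 or 4 (highest adjusted p = 0.0681). Csf1, the growth factor of macrophages, rose by 0.65 ± 0.13 log2 units. Csf1 lost its call without 7-day replicate 5 or 3-day replicate 2 (highest adjusted p = 0.0626). Complement genes had 5 of 20 higher and a median of 0.60; with 1 library left out 1 to 8 (without 7-day replicate 1 or 7-day replicate 3) were higher. Cfb, factor B of the alternative pathway, was stable despite its low level, with 0.556, 1.92, 0.736, 1.84 and 0.729 FPKM at 7 days, against 0.214, 0.0831, 0.199, 0.323 and 0.221 FPKM at 3 days (log2 fold change 2.37 ± 0.44 (SE), edgeR adjusted p = 0.0138). C5ar1, the receptor for the C5a fragment, rose by 1.55 ± 0.36 log2 units. C5ar1 lost its call without 7-day replicates 2, 4 or 5 or 3-day replicates 1, 2, 3, 4 or 5 (highest adjusted p = 0.0868). Of 36 genes of the type I interferon response 30 were positive and 6 negative in sign, with a median of 0.46. Of these 3 were called higher and 1 lower, beside 4.76% and 2.35% of all genes tested. The rises numbered 0 to 13 (without 7-day replicate 3) with 1 library left out and 8 in DESeq2. Bst2, which tethers viruses to the cell surface, rose by 1.18 ± 0.31 log2 units. Bst2 lost its call without 7-day replicates 2, 4 or 5 or 3-day replicates 1, 2, 3, 4 or 5 (highest adjusted p = 0.106). Ddx58, the RNA sensor RIG-I, was the member that fell, with 6.65, 9.82, 5.41, 5.66 and 4.35 FPKM at 7 days, against 14, 18.9, 8.73, 11.2 and 14 FPKM at 3 days (log2 fold change −1.14 ± 0.23 (SE), edgeR adjusted p = 0.0218). Ddx58 lost its call without 7-day replicate 5 or 3-day replicate 2 (highest adjusted p = 0.06).

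**Figure D4:**
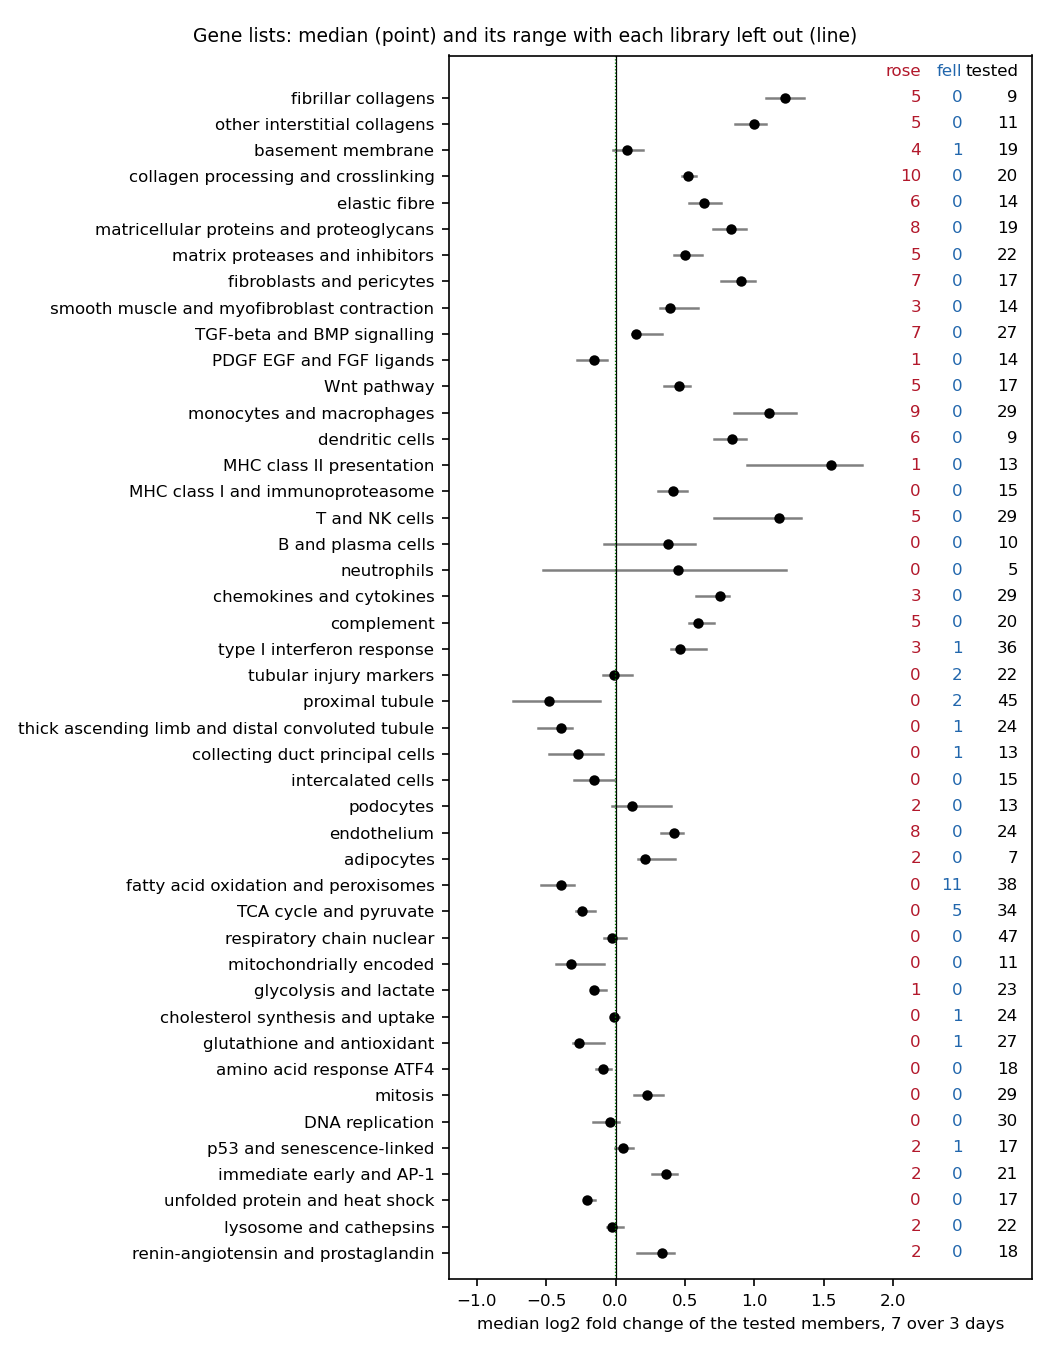
Median log2 fold change (7 over 3 days) of the tested members of 45 gene lists (points), with the lowest and highest median when each library is left out in turn (lines), and at the right how many members rose, fell and were tested. Matrix, fibroblast and immune lists lie right of 0, and fatty acid oxidation and tubule lists left of it; the dotted line is the median of all genes tested.

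Falls were led by genes of fat burning. Pdk4, a kinase that inhibits pyruvate dehydrogenase when fatty acids are burned, lies on chromosome 4, 30546664 to 30556814, minus strand. It had 3.98, 4.17, 2.34, 7.6 and 3.02 FPKM at 7 days, against 25.5, 50.9, 11.5, 18.4 and 35.6 FPKM at 3 days. Every 7-day library was below every 3-day library (log2 fold change −2.83 ± 0.41 (SE), edgeR adjusted p = 0.00594). Cyp4a2, a fatty acid omega-hydroxylase of the proximal tubule, stood on a pair of rows. The row on chromosome 5, 134196912 to 134207863, minus strand had 700.5, 941, 735, 516 and 532 FPKM at 7 days, against 1597, 1974, 2230.4, 1656 and 1649 FPKM at 3 days, the most abundant transcript among the falls described (log2 fold change −1.49 ± 0.19 (SE), edgeR adjusted p = 0.00411). The less abundant row, from 134469270 to 134484839, was not called (log2 fold change −0.70 ± 0.86 (SE), edgeR adjusted p = 0.63), and reads of the similar Cyp4a genes may be shared. Pex11a, which makes peroxisomes divide, had 20.7, 18.5, 23.5, 26.5 and 24.3 FPKM at 7 days, against 36.8, 54.4, 51, 42.9 and 42.2 FPKM at 3 days (log2 fold change −1.08 ± 0.14 (SE), edgeR adjusted p = 0.00411). Vnn1, a pantetheinase that frees the vitamin used for coenzyme A, had 20.5, 23.6, 20.8, 21.6 and 22.9 FPKM at 7 days, against 41.8, 65.4, 53.5, 38.8 and 28.4 FPKM at 3 days; the 7-day values lay close together and the 3-day values did not (log2 fold change −1.14 ± 0.20 (SE), edgeR adjusted p = 0.0116). Pdk4, Cyp4a2, Pex11a and Vnn1 are textbook targets of PPAR-alpha. Their falls were stable, and the part of that factor in them was not tested.

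Over the list for fatty acid oxidation and peroxisomes 11 of 38 tested members fell, none rose, and the median was −0.39. DESeq2 called 17 of the 38 lower and none higher. Markers of the proximal tubule, which burns fatty acids, moved alongside, with 40 of 45 negative in sign and a median of −0.48, and their part in the falls was not tested. For 10 of the 11 fatty acid genes that fell, every 7-day library lay below every 3-day library, which their call in the same libraries makes likely. Among all 38 members that held for 11, beside 1.35% of all genes tested. Cpt1a, which moves fatty acids toward the mitochondrion, had 32.2, 34.7, 34.6, 47.4 and 22.1 FPKM at 7 days, against 72.1, 73.2, 48.7, 50.4 and 73.3 FPKM at 3 days (log2 fold change −0.97 ± 0.19 (SE), edgeR adjusted p = 0.0173). Cpt1a lost its call without 3-day replicate 2 (highest adjusted p = 0.0514). Acadl, a dehydrogenase of long chains, averaged 162 ± 9.04 FPKM at 7 days and 215 ± 11.7 FPKM at 3 days, and Crot, which hands shortened chains from peroxisomes to carnitine, 15.6 ± 2.24 FPKM at 7 days and 22.9 ± 2.47 FPKM at 3 days (SD, n = 5 each). Acadl and Crot were stable, at −0.48 ± 0.08 and −0.62 ± 0.11 on the log2 scale. Eci1, an isomerase for unsaturated chains, fell by 0.82 ± 0.17 log2 units. Eci1 lost its call without 7-day replicate 5 or 3-day replicate 2 (highest adjusted p = 0.0611). Ppargc1a, the coactivator of mitochondrial growth, fell by 0.76 ± 0.20 log2 units. Ppargc1a lost its call without 7-day replicates 3, 4 or 5 or 3-day replicates 1, 2, 3 or 5 (highest adjusted p = 0.106). With 1 library left out the number that fell ran from 4 (without 3-day replicate 2) to 15 (without 7-day replicate 3). Mgll, which releases fatty acids from monoacylglycerol, also fell and averaged 53 ± 15.1 FPKM at 7 days and 110.3 ± 23.4 FPKM at 3 days (SD, n = 5 each). Mgll lost its call without 7-day replicate 5 (highest adjusted p = 0.0517).

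The promoter of Pdk4 is shown because that gene had the largest fall described here. Capitals mark GGCCAAAGG, a match to GGNCAAAGG, part of the repeat that PPAR-alpha and its partner bind. The window is chr4:34568462-34568570 (minus strand, RefSeq, GRCr8), positions −241 to −133.
Pdk4: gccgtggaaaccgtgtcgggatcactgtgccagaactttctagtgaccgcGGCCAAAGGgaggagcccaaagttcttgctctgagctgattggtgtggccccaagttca
On either strand GGNCAAAGG was in 1.97% of all promoters, and in 1 of the 10 genes with an entry among Pdk4 and the 11 list members that fell, namely Pdk4.

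In the tricarboxylic acid cycle and pyruvate list 5 of 34 fell, none rose, 31 were negative in sign and the median was −0.24. With 1 library left out the falls numbered 2 to 6 (without 7-day replicate 3). Beside Pdk4 the falls were led by Ogdh, a subunit of 2-oxoglutarate dehydrogenase, and Me1, the malic enzyme of the cytosol. Me1 had 19, 14.6, 17.5, 13.9 and 17.7 FPKM at 7 days, against 25.5, 26.3, 22.9, 21.2 and 25.7 FPKM at 3 days (log2 fold change −0.63 ± 0.11 (SE), edgeR adjusted p = 0.0121), which was stable. Ogdh fell by 0.84 ± 0.20 log2 units. Ogdh lost its call without 7-day replicates 4 or 5 or 3-day replicates 1, 2 or 3 (highest adjusted p = 0.0847). No gene of the 47 nuclear respiratory chain genes passed in edgeR, DESeq2 or limma on log2(FPKM + 1), and 3 were lower at an unadjusted p under 0.05, with a median of −0.02 and log2 fold changes between −0.25 and 0.16. The 11 mitochondrially encoded genes had a median of −0.32, or −0.081 without 3-day replicate 3. None was called by edgeR or limma and 1, lower at 7 days, by DESeq2, with 2 lower at an unadjusted edgeR p under 0.05. Glycolysis genes had 1 of 23 higher, near the 4.76% of all genes tested, and a median of −0.15. That gene was Hk2, the inducible hexokinase, with 4.48, 6.22, 3.31, 7.86 and 5.9 FPKM at 7 days, against 3.38, 1.97, 2.65, 3.55 and 3.17 FPKM at 3 days (log2 fold change 0.84 ± 0.22 (SE), edgeR adjusted p = 0.0444). Hk2 lost its call without 7-day replicates 2, 4 or 5 or 3-day replicates 1, 2, 3, 4 or 5 (highest adjusted p = 0.104).

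Tubule markers leaned down, few past the edgeR test, which called 2.35% of all genes tested lower. Of 45 proximal tubule genes 2 fell, none rose and 40 were negative in sign, with a median of −0.48. That median was −0.11 without 3-day replicate 3 and −0.74 without 7-day replicate 3. Slc4a4, the bicarbonate exit carrier of the proximal tubule, had 29.3, 35.5, 16.5, 8.17 and 8.08 FPKM at 7 days, against 59.5, 78.6, 39.3, 57.4 and 33.3 FPKM at 3 days (log2 fold change −1.53 ± 0.41 (SE), edgeR adjusted p = 0.0494). Slc4a4 lost its call without 7-day replicates 3, 4 or 5 or 3-day replicates 1, 2, 3, 4 or 5 (highest adjusted p = 0.114). Lrp2, the endocytic receptor megalin, had 87.1, 91.4, 141, 39.9 and 73.8 FPKM at 7 days, against 127, 133, 163, 119 and 53.5 FPKM at 3 days, with wide overlap (log2 fold change −0.53 ± 0.34 (SE), edgeR adjusted p = 0.34). In the thick ascending limb and distal tubule list the median was −0.40, and DESeq2 called 6 of 24 lower and none higher. In edgeR 1 of the 24 fell. That was Kcnj1, the potassium channel ROMK, with 23, 18.2, 17, 19.8 and 18.4 FPKM at 7 days, against 41.5, 22.7, 28.8, 25.8 and 35.5 FPKM at 3 days (log2 fold change −0.75 ± 0.15 (SE), edgeR adjusted p = 0.0202). Kcnj1 lost its call without 7-day replicate 5 (highest adjusted p = 0.0584). Umod, uromodulin, had 78.6, 65.2, 90.7, 224 and 106 FPKM at 7 days, against 381, 54, 41.3, 116 and 150.4 FPKM at 3 days and showed no direction beyond the spread (log2 fold change −0.44 ± 0.55 (SE), edgeR adjusted p = 0.634), its high values being 3-day replicate 1 and 7-day replicate 4. Egf, made in the distal tubule, had 3.45, 3.31, 3.0, 9.13 and 2.45 FPKM at 7 days, against 15.2, 6.71, 3.73, 8.36 and 5.7 FPKM at 3 days; it was not called (log2 fold change −0.96 ± 0.41 (SE), edgeR adjusted p = 0.149) except in the refit without 7-day replicate 4. Slc12a3, the thiazide-sensitive carrier, had a positive sign (log2 fold change 0.25 ± 0.22 (SE), edgeR adjusted p = 0.494). Principal cells had 1 of 13 lower, the water channel Aqp4 (−0.95 ± 0.25 log2 units). Aqp4 lost its call without 7-day replicates 1, 2, 3 or 5 or 3-day replicates 1, 2, 3 or 5 (highest adjusted p = 0.114). Aqp2, the vasopressin-regulated water channel, was not called (log2 fold change −0.56 ± 0.36 (SE), edgeR adjusted p = 0.329). Kl, the co-receptor klotho of the distal tubule, had 24.6, 23.9, 23.5, 10.6 and 15.1 FPKM at 7 days, against 37.2, 35.4, 54.8, 31.4 and 12 FPKM at 3 days (log2 fold change −0.89 ± 0.36 (SE), edgeR adjusted p = 0.137), and was called without 3-day replicate 5.

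Injury markers of the tubule gave a median of −0.01 over 22 genes, with none higher and 2 lower. The pair that fell were fibrinogen chains, which injured tubules are known to make. Fgb had 10.9, 11.5, 7.6, 16.1 and 16.3 FPKM at 7 days, against 35.9, 47.2, 21.1, 39.5 and 84.6 FPKM at 3 days (log2 fold change −1.95 ± 0.33 (SE), edgeR adjusted p = 0.011), and was stable. Fga had 29.2, 20.5, 28.1, 47.7 and 40.4 FPKM at 7 days, against 76.3, 72.2, 44.9, 75.6 and 133 FPKM at 3 days (log2 fold change −1.34 ± 0.28 (SE), edgeR adjusted p = 0.0227). Fga lost its call without 7-day replicate 5 or 3-day replicate 2 (highest adjusted p = 0.0533). Havcr1, the injury molecule KIM-1, was abundant in both groups, with 505, 419.6, 258, 343 and 378 FPKM at 7 days, against 542, 559, 188, 536 and 539.9 FPKM at 3 days (log2 fold change −0.37 ± 0.26 (SE), edgeR adjusted p = 0.38); 3-day replicate 3, the library richest in mitochondrial transcript, was the low one. Lcn2, the siderophore-binding protein NGAL, had 326, 232, 428, 101 and 326 FPKM at 7 days, against 344, 322, 175, 395 and 1674 FPKM at 3 days (log2 fold change −1.10 ± 0.58 (SE), edgeR adjusted p = 0.242), where 3-day replicate 5 stood far above the rest.

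Outside these lists, the stable falls included Hyal1, a hyaluronidase of the lysosome, with 3.83, 5.56, 3.0, 3.03 and 2.63 FPKM at 7 days, against 11.6, 7.96, 6.7, 6.64 and 12 FPKM at 3 days (log2 fold change −1.39 ± 0.24 (SE), edgeR adjusted p = 0.0116). Mturn and Zhx3 fell by 1.03 ± 0.13 log2 units and 1.19 ± 0.20 log2 units, also stable. Itgb8, an integrin chain that helps release active transforming growth factor beta, had 7.99, 10.4, 7.75, 5.31 and 5.11 FPKM at 7 days, against 33.4, 18.4, 11.8, 14.7 and 15.3 FPKM at 3 days (log2 fold change −1.42 ± 0.28 (SE), edgeR adjusted p = 0.0177); its highest value was in 3-day replicate 1. Itgb8 lost its call without 7-day replicate 5 (highest adjusted p = 0.0542).

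Endothelial genes had 8 of 24 members higher, none lower and a median of 0.42, and 2 (without 3-day replicate 1 or 7-day replicate 5) to 9 (without 7-day replicate 1) were higher with 1 library left out. Cdh5, the cadherin of vessel junctions, had 6.13, 12.6, 8.87, 9.37 and 11 FPKM at 7 days, against 5.16, 4.52, 4.91, 4.48 and 4.35 FPKM at 3 days (log2 fold change 0.96 ± 0.17 (SE), edgeR adjusted p = 0.0116). Flt4, the growth factor receptor of lymphatic vessels, had 3.91, 8.1, 4.57, 4.49 and 6.32 FPKM at 7 days, against 2.25, 2.51, 2.47, 2.88 and 1.76 FPKM at 3 days (log2 fold change 1.13 ± 0.21 (SE), edgeR adjusted p = 0.0136). Lyve1, a hyaluronan receptor of lymphatic vessels and some macrophages, rose by 1.39 ± 0.31 log2 units. Lyve1 lost its call without 7-day replicate 5 or 3-day replicates 1, 2 or 4 (highest adjusted p = 0.0726). Podocyte genes had 2 of 13 higher at a median of 0.12. Of these Kirrel, a slit diaphragm protein, had 22.5, 24.1, 14.6, 15.8 and 21 FPKM at 7 days, against 9.62, 8.05, 12, 9.97 and 7.35 FPKM at 3 days (log2 fold change 0.98 ± 0.17 (SE), edgeR adjusted p = 0.0126) and was stable. Tcf21, a transcription factor that interstitial cells also express, rose by 0.91 ± 0.19 log2 units. Tcf21 lost its call without 7-day replicates 4 or 5 or 3-day replicate 2 (highest adjusted p = 0.0631). Adipoq, the fat cell hormone adiponectin, rose by 1.04 ± 0.22 log2 units and was 4.94 to 9.37 FPKM at 7 days and 2.64 to 4.7 FPKM at 3 days. Adipoq lost its call without 7-day replicate 5 or 3-day replicates 1 or 4 (highest adjusted p = 0.0667). Summed adipocyte markers were 11.9 to 16.5 FPKM at 7 days and 6.58 to 12.0 FPKM at 3 days. Their part in the difference was not tested.

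Cell division genes were not called. None of 29 mitosis genes or 30 DNA replication genes passed in edgeR, DESeq2 or limma on log2(FPKM + 1), with medians of 0.23 and −0.04. At an unadjusted edgeR p under 0.05, 5 mitosis genes and 1 DNA replication gene were higher at 7 days. Mki67, the proliferation marker, had 7.06, 6.94, 5.81, 4.61 and 4.65 FPKM at 7 days, against 4.62, 3.77, 4.97, 4.28 and 3.63 FPKM at 3 days (log2 fold change 0.38 ± 0.15 (SE), edgeR adjusted p = 0.128). Nor did edgeR or limma call any gene among 18 amino acid response genes or 17 unfolded protein and heat shock genes, with medians of −0.09 and −0.21. DESeq2 called 2 of the first set, both lower, and 3 of the second, 1 higher and 2 lower; 5 and 7 had an unadjusted edgeR p under 0.05. In a p53 list 2 rose and 1 fell of 17, among them Plk2, a kinase induced by p53, at 0.80 ± 0.17 log2 units. Plk2 lost its call without 7-day replicate 5 or 3-day replicates 1, 2 or 4 (highest adjusted p = 0.0626). Immediate early genes had 2 of 21 higher, beside 4.76% of all genes tested, and a median of 0.36. Egr2, an early growth response factor, had 10.5, 9.91, 9.18, 10.6 and 17.6 FPKM at 7 days, against 5.62, 3.27, 3.82, 3.75 and 2.82 FPKM at 3 days and was stable (log2 fold change 1.5 ± 0.22 (SE), edgeR adjusted p = 0.00594). Of 18 renin-angiotensin and prostaglandin genes, with a median of 0.34, Ptger2 and Ptgis, a prostaglandin receptor and prostacyclin synthase, rose by 1.27 ± 0.28 log2 units and 1.12 ± 0.24 log2 units. Ptger2 lost its call without 7-day replicate 5 or 3-day replicates 1, 2 or 4 (highest adjusted p = 0.0665). Ptgis lost its call without 7-day replicate 5 or 3-day replicates 1 or 2 (highest adjusted p = 0.0656). Gpx2, a glutathione peroxidase, was the member of the 27 antioxidant genes that fell (−0.52 ± 0.10 log2 units), beside 2.35% of all genes tested. Gpx2 lost its call without 3-day replicate 2 (highest adjusted p = 0.0502).

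The other libraries of the series give these genes a wider frame, as levels with no test. Mmp7 was 0.164 to 9.66 FPKM in the 5 libraries of 1 day, where 1 library alone was in the 7-day range, and 0 to 0.418 FPKM in the 3 labelled 14 days. Col1a1 was 13.7 to 25.2 FPKM at 1 day and 1.83 to 26.1 FPKM in the libraries labelled 14 days, so the 7-day libraries were above every other library. Pdk4 was 7.41 to 28.1 FPKM at 1 day and 7.8 to 25.7 FPKM in those labelled 14 days, and Cpt1a was 44.2 to 86.4 FPKM at 1 day and 39.7 to 50.7 FPKM in those labelled 14 days. Fgb was 27 to 92.6 FPKM at 1 day and 0 to 1.78 FPKM in those labelled 14 days. Havcr1 was 640.3 to 1040.0 FPKM at 1 day and 0.317 to 7.45 FPKM in the libraries labelled 14 days, against 258 to 505 FPKM at 7 days. The 3 libraries labelled 14 days differed widely from each other in some genes, with Umod at 27.2 to 2270 FPKM and Cyp4a2 at 27.4 to 2759 FPKM. What sets them apart was not tested.

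**Figure D5:**
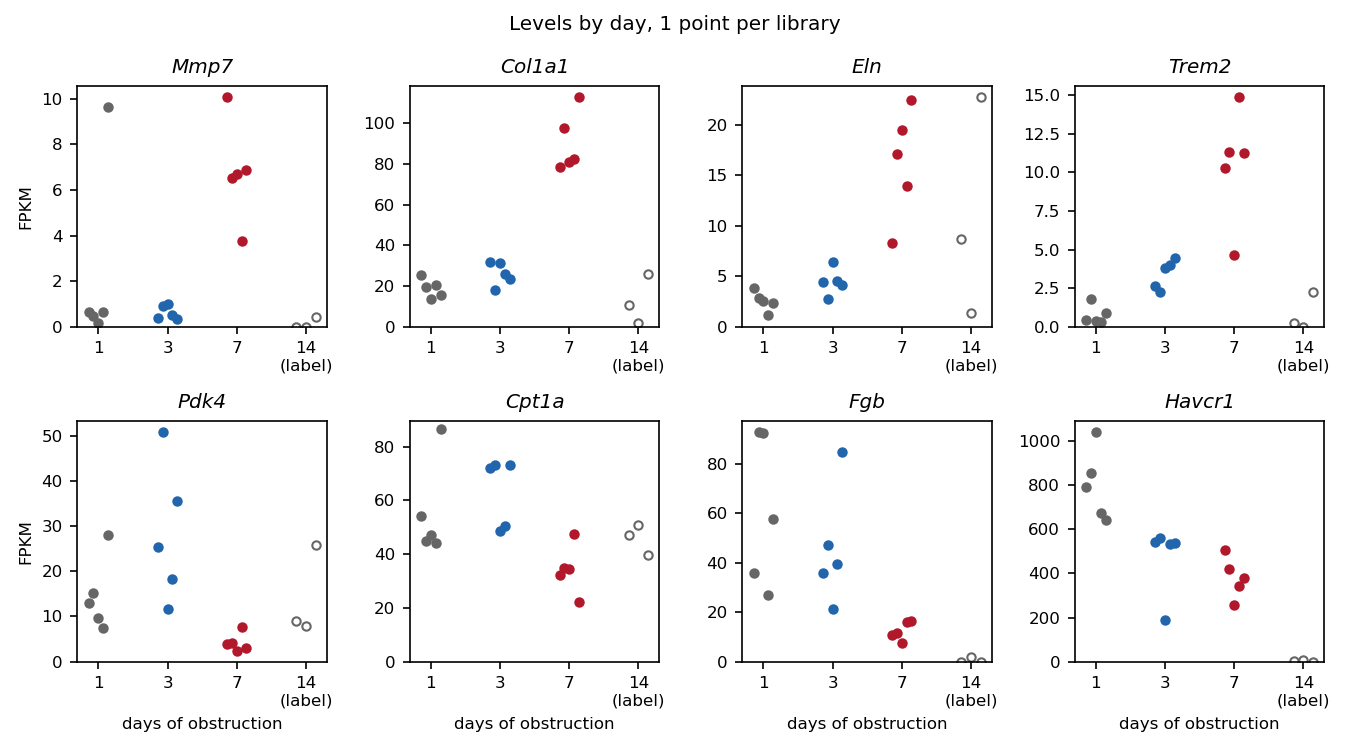
FPKM (linear axes from 0) of 8 genes by labelled day of obstruction, 1 point per library (5 at 1, 3 and 7 days and 3 open points labelled 14 days). Col1a1 is highest in every 7-day library, Pdk4 peaks in 3-day libraries, and Havcr1 is near 0 in the libraries labelled 14 days.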

How the data were processed

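Poly(A) RNA of rat renal parenchyma was sequenced, per the labels' protocols. The submitters' processing notes name fastp 0.19.7 for read cleaning and HISAT2 2.0.4 for alignment. Neither the read counter and its strand setting nor the build and annotation were named in these sources, so reads from overlapping or opposite-strand genes may be mixed. Per the file headers, the deposited table holds read counts, which are whole numbers. The authors also deposited FPKM, whose making the headers do not describe; FPKM served here to show levels and for an alternative fit.

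Libraries were grouped by their labels. Low genes were removed with filterByExpr at a minimum count of 10 (total 15), and counts were scaled by TMM and tested with edgeR 4.0.16 in R 4.3.3 (quasi-likelihood, Benjamini-Hochberg over all 13809 genes). Standard errors are the log2 fold change over the square root of F. Counts limit precision through depth, 5899690 to 12049915 per library. Replicates of a group differed by at least 8.98 times the sampling noise (chi-square per degree of freedom), so none was counted as a duplicate.

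Gene lists (49, with 1118 entries, of which 1066 matched by symbol and 22 by an older symbol) are described by counts and medians, with no set test. Members, lists and tests were chosen with earlier results of these data known. Named genes are, in part, the 15 largest called rises and falls with no overlap and at least 5 FPKM in the higher group, up to 4 called members per list in the main direction and 2 in the other, or the 2 with the smallest p, and a fixed set of markers; Col5a2, Loxl2, Acadl, Crot, Ppargc1a and the uroplakins were added after their values were seen, and 2 genes that the rule names are not reported here. Where a symbol had several rows, the row with most counts was used. Alternatives were RLE factors, DESeq2 1.42.0, limma 3.58.1 on log2(FPKM + 1) or log2(FPKM + 0.1), other filters, a robust variance, a replicate block, more libraries in the fit, a size threshold, mitochondrial genes left out, and each library left out.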

Additional observations from a re-analysis of the deposited data

Results flagged for a closer look

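Within the groups of 5, 264 sets of values were examined for a library far from its group, and 19 were marked. Chance alone would mark about 1 set in 20 if values were independent and normally spread. These sets share the same 10 libraries and include uroplakins added after their values were seen. That rate is therefore no benchmark for them. Day 3 replicate 1 stood out for urothelial transcripts and depth. It had 19.6 FPKM of Upk1a, 8.56 FPKM of Upk1b, 19.0 FPKM of Upk2 and 22.8 FPKM of Upk3a, while the other 3-day libraries were at most 4.17, 0.695, 3.60 and 3.26 FPKM. Its 12049915 counts were above the next 3-day library at 7774007. Col4a2 was 86.9 FPKM there, against at most 70.0 FPKM in the other 3-day libraries.

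Day 3 replicate 3 was low for Havcr1, at 187.6 FPKM, where the other 3-day libraries were 535.9 to 558.7 FPKM. Day 3 replicate 5 was high for Lcn2, at 1674 FPKM against at most 395.2 FPKM, and for Cxcl1, at 7.36 FPKM against at most 3.76 FPKM.

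Among the 7-day libraries, replicate 4 was high for Cd3e at 13.0 FPKM, Cxcr3 at 22.0 FPKM, Egf at 9.13 FPKM and Umod at 223.9 FPKM; for Upk1b its 0.242 FPKM was apart from values at or near 0. Replicate 5 was high for Cthrc1 at 17.6 FPKM and Egr2 at 17.6 FPKM and low for Mturn at 6.34 FPKM. Replicate 2 was high for Col11a1 at 5.62 FPKM and Loxl2 at 14.7 FPKM.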

How the results depend on the processing

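With all 10 libraries the test called 981 genes, 657 higher and 324 lower after 7 days. DESeq2 called 2103 (1211 higher, 892 lower), and adding the other libraries of the series to the fit left 154 (106 and 48). The fit on the 15 libraries of days 1, 3 and 7 called 505 genes lower, and limma called 143 lower on log2(FPKM + 1) and 146 on log2(FPKM + 0.1). Requiring a log2 fold change of at least 1 as well kept 335 (290 higher, 45 lower). With each library left out in turn the calls ran from 247 to 1336, the genes higher from 198 to 883 and those lower from 45 to 453. Without day 3 replicates 1 and 3, an alternative chosen after seeing the data, 310 were called (233 higher, 77 lower). Fits with RLE factors, other count filters, the robust variance or no mitochondrial genes stayed within 1.5 times the main counts. The log2 fold change of Umod, which was not called, ran from −0.84 to 0.25 on the log2 scale over the refits with 1 library left out, positive without day 3 replicate 1, and was 0.021 without day 3 replicates 1 and 3; no other named gene turned. The cause of these shifts was not tested.

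The labels do not say that replicate numbers pair the libraries, and correlations between so few libraries cannot settle it. The correlations of same-numbered deviations were −0.031, −0.0022, 0.19, 0.17 and 0.066, and not every library correlated best with its own number. With the replicate block 1204 genes were called, 596 higher and 608 lower, 726 of them shared with the fit without it. Depth limits genes of low count, and 7317 genes with a count were not tested.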

Other observations

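Further genes changed outside the groups described. Bcl2a1, a survival gene of myeloid cells, had 5.72, 19.6, 6.69, 26.9 and 12 FPKM at 7 days, against 4.48, 1.74, 4.32, 3.55 and 5.09 FPKM at 3 days (log2 fold change 1.78 ± 0.44 (SE), edgeR adjusted p = 0.0369). Bcl2a1 lost its call without 7-day replicates 2, 4 or 5 or 3-day replicates 1, 2, 3, 4 or 5 (highest adjusted p = 0.0883). C1qtnf6, a secreted relative of complement C1q, had 7.54, 10.9, 10.8, 8.66 and 12.8 FPKM at 7 days, against 4.17, 1.91, 3.13, 2.23 and 2.47 FPKM at 3 days (log2 fold change 1.78 ± 0.22 (SE), edgeR adjusted p = 0.00399). Among the falls, Fnip2, a partner of the energy-sensing protein folliculin, had 10.0, 11, 7.5, 3.89 and 6.07 FPKM at 7 days, against 23, 19.8, 16.6, 16.3 and 13.5 FPKM at 3 days (log2 fold change −1.28 ± 0.25 (SE), edgeR adjusted p = 0.0166). Fnip2 lost its call without 7-day replicate 5 or 3-day replicate 2 (highest adjusted p = 0.0544).

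Cfd, complement factor D, is listed with fat cells as well as complement. It had 3.31, 16.9, 4.12, 22.2 and 14.7 FPKM at 7 days, against 2.19, 2.14, 1.9, 3.72 and 3.12 FPKM at 3 days, high in the 7-day replicates 2, 4 and 5 that also held the most macrophage transcript (log2 fold change 2.15 ± 0.50 (SE), edgeR adjusted p = 0.0332). Cfd lost its call without 7-day replicates 2, 4 or 5 or 3-day replicates 1, 2, 3, 4 or 5 (highest adjusted p = 0.0847). Klrk1, a receptor of NK and killer T cells, had 4.75, 25.4, 4.66, 18.2 and 9.31 FPKM at 7 days, against 4.74, 1.11, 2.51, 3.48 and 2.4 FPKM at 3 days (log2 fold change 2.02 ± 0.51 (SE), edgeR adjusted p = 0.0402). Klrk1 lost its call without 7-day replicates 2, 4 or 5 or 3-day replicates 1, 2, 3, 4 or 5 (highest adjusted p = 0.0927). Nr4a1, an immediate early nuclear receptor, had 16.2, 10.0, 8.17, 23.2 and 13.7 FPKM at 7 days, against 4.98, 7.25, 4.19, 4.43 and 7.2 FPKM at 3 days with no overlap (log2 fold change 1.27 ± 0.27 (SE), edgeR adjusted p = 0.0249). Nr4a1 lost its call without 7-day replicate 5 or 3-day replicates 1 or 4 (highest adjusted p = 0.0627).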
